A study of Mus musculus with 8 samples.

Results

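Protein tyrosine phosphatases and dual-specificity phosphatases remove phosphate from tyrosine, or from tyrosine together with serine or threonine, and so reverse what kinases write during antigen receptor and cytokine signalling. In T cells, CD45 sets the threshold of antigen receptor signalling by acting on the kinase Lck, and dual-specificity enzymes limit how long MAP kinases stay active. The 47 genes described here were taken by name, as every gene of the count table whose symbol begins with Ptpn, Ptpr, Ptp4a or Dusp followed by the family letter or number, out of 11354 genes in the table. They comprise 15 non-receptor tyrosine phosphatases, 10 receptor-type genes, 3 PRL phosphatases, 9 MAP kinase phosphatases, 9 other dual-specificity phosphatases and Ptprcap, which encodes a protein bound to the leukocyte phosphatase CD45 and is itself no phosphatase. RefSeq lists 67 mouse genes with such names, and the 20 others were not analysed here. Levels are given as CPM, the counts per 1e+06 counts of a library. Every gene of the table reached at least 0.994 CPM in 4 or more libraries, so genes below that are not described. Of the 47 genes, 42 reached 1 CPM in all 8 libraries, and Ptpro reached it in the 4 libraries labelled KO and in 0 of the others. Ptpn5 reached it in the 4 libraries labelled WT and in 1 of the others.

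The study sequenced poly(A) RNA from CD4 T cells on a Black6 background after adoptive transfer into RAG-/- mice, hosts that lack T and B cells of their own. There were 4 libraries of transferred Nlrp6-/- CD4 T cells (KO 1, KO 2, KO 4 and KO 5, after the host number) and 4 of transferred wild-type CD4 T cells (WT 1, WT 2, WT 4 and WT 5). Some labels place the recovered cells in the host spleen and others in the colonic lamina propria, and the labels describe neither the targeted allele nor whether a host number stands for 1 animal that received both kinds of cells. The comparison asks which transcripts differ between T cells with and without Nlrp6, a NOD-like receptor. The labels do not say whether libraries of 1 label came from separate donors of cells, and the p-values reflect only the spread among these libraries, which may be technical.

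Nlrp6 itself went against the labels. It had 487, 329, 477 and 648 counts in KO 1, KO 2, KO 4 and KO 5, against 5, 3, 3 and 8 counts in WT 1, WT 2, WT 4 and WT 5, which made the log2 fold change 6.70 ± 0.32 (edgeR adjusted p = 4.07e-06). Every direction below is therefore that of libraries labelled KO over libraries labelled WT, and of no genotype. Totals ran from 35198192 to 40310721 counts. The T cell markers Cd4 and Cd3e were present in every library, Cd4 at 1087 to 1477 CPM in the libraries labelled KO and 1321 to 1549 CPM in those labelled WT, and Cd3e at 467 to 524 CPM in the libraries labelled KO and 478 to 565 CPM in those labelled WT. Markers of myeloid cells were also present in every library: the 20 genes of that list summed to 316, 546, 973 and 719 CPM in KO 1, KO 2, KO 4 and KO 5, against 105, 84.6, 62.5 and 77.3 CPM in WT 1, WT 2, WT 4 and WT 5. Of the 20, 18 were called higher and 0 lower, and no count was at 0. Dendritic cell and MHC class II genes (477 to 1362 CPM in the libraries labelled KO, 75.9 to 129.9 CPM in those labelled WT) and neutrophil genes (28.6 to 62.1 CPM in the libraries labelled KO, 7.39 to 12.9 CPM in those labelled WT) were likewise higher in each library labelled KO. Each of these 3 sums gave a two-sided exact permutation p of 0.0286, the smallest that 70 assignments allow, or 0.0858 adjusted over 9 lists. The adjusted p of the other measured lists was 0.128 for CD8, 0.154 for CD4 T cell, 0.685 for stroma and endothelium, 0.734 for red cell, 0.739 for natural killer and 1.0 for epithelium genes in these exact tests. Scaled by total library size, the 10 CD4 T cell genes summed to 7232 to 7605 CPM in the libraries labelled KO, all below the 7640.1 to 8569.9 CPM of those labelled WT (exact permutation p = 0.0286, adjusted 0.0644, as for the myeloid list there). The part of other cells in the results below was not tested. KO 4 and KO 5, which had the highest myeloid sums, also carry another library code (8) in the submitters' sample descriptions than the other 6 libraries (7).

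The families share a catalytic loop in which a cysteine forms a bond with the phosphate and an arginine holds it. The loop can be read in the coding sequences as a histidine codon, a cysteine codon, 5 further codons and an arginine codon. In the longest coding sequence of each gene in GENCODE, 44 of 46 members held such a run, and 6 of them held it at 2 places. Only the codons were matched, so a run at another place need not be a catalytic loop. The members without it were Ptprcap and Dusp28. No coding transcript of Ptprv is annotated, and RefSeq lists that gene as a transcribed pseudogene. The loops of 6 called members are shown, since the catalytic centre is what the family shares, 5′ to 3′ on the coding strand, with the cysteine and arginine codons in capitals.
Ptpn5: cacTGCagtgcagggattgggAGA
Ptpn7: cacTGCagtgcagggatcggcCGG
Ptpro: cacTGCagtgcgggtgtgggaCGG
Dusp14: cacTGTgcggcaggcgtgagcCGC
Dusp16: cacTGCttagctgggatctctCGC
Dusp8: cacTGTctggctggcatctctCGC
In GRCm38 the Dusp14 loop lies at chr11:84048863-84048886, the Dusp16 loop at chr6:134720559-134720582 and the Dusp8 loop at chr7:142083333-142083356, each within a coding exon and on the minus strand. The loops of Ptpn5 (chr7:47079344-47079454, minus strand), Ptpn7 (chr1:135139271-135141958, plus strand) and Ptpro (chr6:137450018-137454600, plus strand) are split by an intron.

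Among the 47 genes, 6 rose and 9 fell in the libraries labelled KO (edgeR's quasi-likelihood test, Benjamini-Hochberg adjusted p below 0.05 over all 11354 genes). Over the whole table, 6.20% of genes were called higher and 3.84% lower, 10% in all, whereas 31.9% of the members were called. That share includes Ptpro and Ptpn5, which were in the table through the libraries of the label in which they were high. The risers were the MAP kinase phosphatases Dusp4, Dusp8, Dusp10 and Dusp16, the small dual-specificity phosphatase Dusp3 and the receptor-type Ptpro. The fallers were the non-receptor Ptpn1, Ptpn5, Ptpn7, Ptpn11 and Ptpn21, the receptor-type pseudogene Ptprv and the dual-specificity Dusp12, Dusp14 and Dusp23. The median log2 fold change was 0.03 over the 47 members and -0.00258 over all genes. The levels of the labels' libraries did not overlap for the 15 called members and for Ptprc, 34.0% of the members, against 16% of all genes. This share includes Ptpro and Ptpn5 as well. DESeq2 called 18 members, against 13.9% of all genes, and limma-voom called 17, against 12.2% of all genes. Without KO 1 the count of fallers was 5 instead of 9, and over all genes 276 were lower instead of 436. Of the 47 members, 32 overlap another gene model in GENCODE, among them 9 of the 15 called. Of these 9, 7 overlap a gene on the opposite strand, and reads of such neighbours cannot be told apart without a known strand setting. In the libraries of code 7 alone, KO 1 and KO 2 against the WT libraries, 13 members were called, against 8.01% of all genes. Of these 13, 10 were among the 15.

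**Figure D1:**
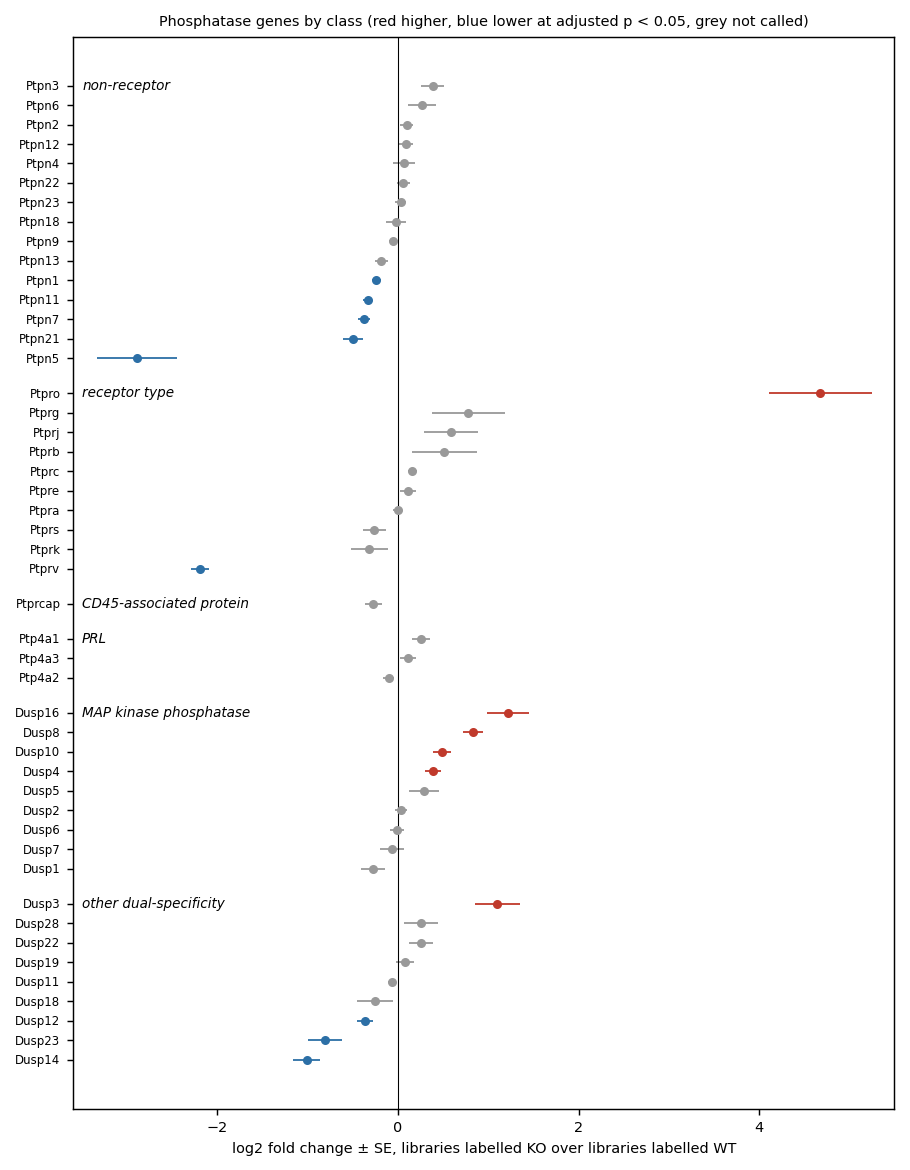
Log2 fold change with its standard error for each of the 47 genes, libraries labelled KO over libraries labelled WT, grouped by class. Red points are the 6 called higher, blue points the 9 called lower and grey points the 32 not called; Ptpro lies farthest to the right at 4.68 and Ptpn5 farthest to the left at -2.89.

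**Figure D2:**
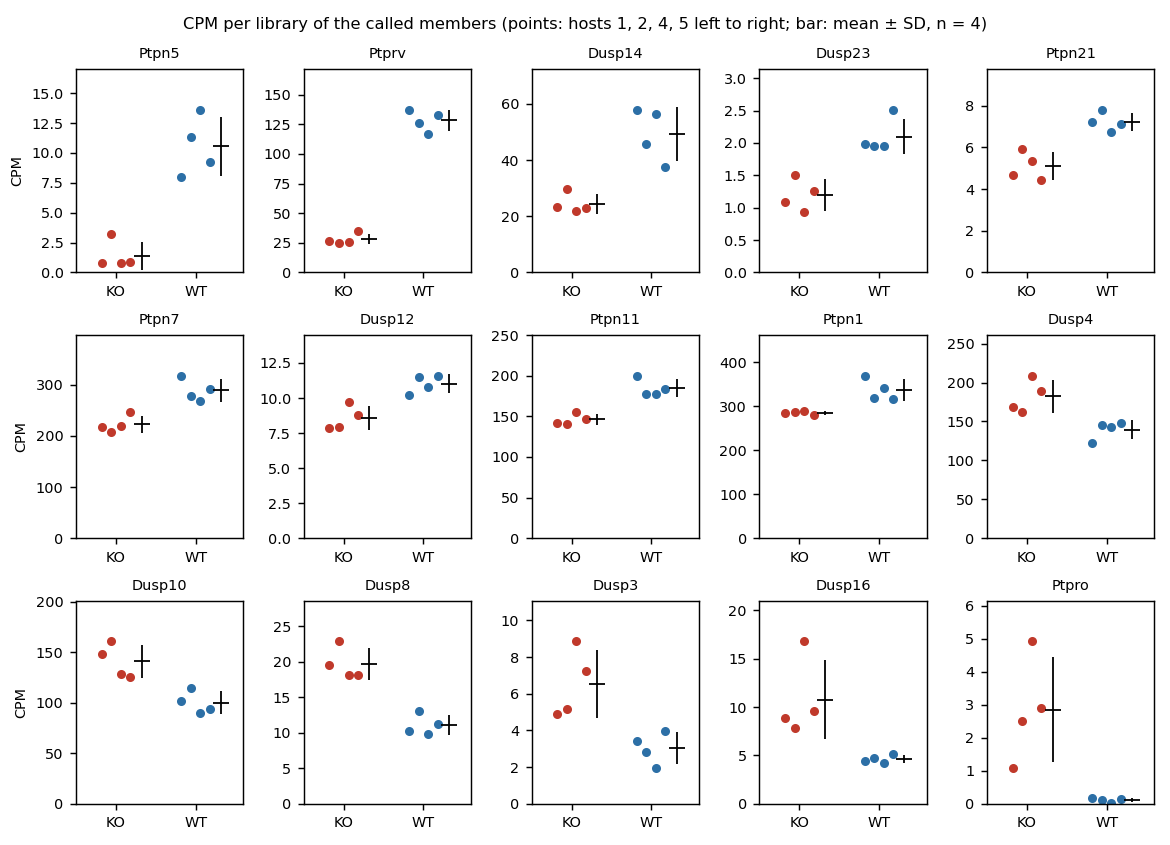
CPM of the 15 called genes, with 1 point per library and the mean ± SD (n = 4) beside the points; each panel has its own axis from 0. The KO and WT libraries do not overlap in any panel, and KO 2 stands above the other KO libraries for Ptpn5.

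Non-receptor tyrosine phosphatases are cytoplasmic enzymes that differ in the targeting domains joined to the catalytic domain. Of the 15 measured, 0 rose and 5 fell by edgeR, against 6.20% and 3.84% of all genes. An unadjusted p under 0.05 was found for 7, and the share of all genes with such a p is not given here or below. DESeq2 and limma-voom each called Ptpn3 higher as well. Ptpn5 encodes STEP, a phosphatase best known from striatal neurons that acts on the MAP kinases ERK and p38 through a kinase interaction motif. Ptpn5 had 0.776, 3.18, 0.792 and 0.882 CPM in KO 1, KO 2, KO 4 and KO 5, against 8.03, 11.3, 13.6 and 9.27 CPM in WT 1, WT 2, WT 4 and WT 5. KO 2 was the highest of the KO libraries and still below every WT library. Ptpn5 reached 1 CPM in the 4 libraries labelled WT and in KO 2, and so was in the table through the WT libraries. The level was 7.42-fold lower in the libraries labelled KO, on the log2 scale -2.89 ± 0.44 (edgeR adjusted p = 0.00252), and -3.68 without KO 2. The gene lies on chromosome 7 from 47077795 to 47134026 (GRCm38), and an antisense gene model, Gm14377, overlaps it. From bulk RNA, fewer cells that hold a transcript and less of it per cell cannot be told apart.

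Ptpn7 encodes HePTP, the phosphatase of blood cells that binds ERK and p38 through the same kind of motif. It had 217, 208, 219.9 and 247 CPM in KO 1, KO 2, KO 4 and KO 5, against 318, 278, 268 and 292 CPM in WT 1, WT 2, WT 4 and WT 5. The KO libraries all lay lower, by 1.30-fold (log2 fold change -0.38 ± 0.07, edgeR adjusted p = 0.00686). Both measured tyrosine phosphatases of the type with a kinase interaction motif, Ptpn5 and Ptpn7, were called lower, and their relative Ptprr was not analysed here. This grouping was set with the results in view, and Ptpn5 was in the table through the WT libraries. No result for the type as a whole is drawn from these calls, and 3.84% of all genes were called lower. The MAP kinase phosphatases dock on MAP kinases too, and their values are given below.

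Ptpn11 encodes SHP-2, which docks on phosphorylated receptors and promotes Ras and ERK signalling. It had 142, 141, 155 and 147 CPM in KO 1, KO 2, KO 4 and KO 5, against 200.1, 177, 177 and 184 CPM in WT 1, WT 2, WT 4 and WT 5 (log2 fold change -0.33 ± 0.05, edgeR adjusted p = 0.00304). The highest KO library, KO 4, lay below the lowest WT libraries, WT 2 and WT 4. Ptpn1 encodes PTP1B, an enzyme of the endoplasmic reticulum membrane that acts on insulin and cytokine receptor signalling. It averaged 285 ± 3.65 CPM in the libraries labelled KO and 337 ± 24.9 CPM in those labelled WT (SD, n = 4 each), with log2 fold change -0.24 ± 0.05 (edgeR adjusted p = 0.0177). Ptpn21, a phosphatase with a FERM domain that binds the membrane skeleton, averaged 5.10 ± 0.666 CPM in the libraries labelled KO and 7.22 ± 0.431 CPM in those labelled WT (SD, n = 4 each), with log2 fold change -0.50 ± 0.11 (edgeR adjusted p = 0.0228). Ptpn11, Ptpn7 and Ptpn5 were called whichever of the 8 libraries was left out. The call of Ptpn1 ended without WT 4 or KO 1, and that of Ptpn21 without WT 1, WT 2, KO 1 or KO 5, and both ended in the libraries of code 7 alone.

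Ptpn22, Ptpn2 and Ptpn6, which also act in T cell signalling, were not called. Ptpn22, the lymphoid phosphatase that dephosphorylates Lck and Zap70, averaged 703 ± 60.8 CPM in the libraries labelled KO and 675 ± 48.4 CPM in those labelled WT (SD, n = 4 each; log2 fold change 0.06 ± 0.07). Ptpn2, which acts on JAK kinases and STAT factors, averaged 108 ± 9.37 CPM in the libraries labelled KO and 101 ± 6.01 CPM in those labelled WT (log2 fold change 0.10 ± 0.07). Ptpn6 encodes SHP-1, which inhibitory receptors recruit in T cells and myeloid cells. It had 125, 180.4, 132 and 174 CPM in KO 1, KO 2, KO 4 and KO 5, against 118, 128, 101 and 162 CPM in WT 1, WT 2, WT 4 and WT 5, and the labels overlapped. The edgeR adjusted p-values of these 3 genes were 0.716, 0.460 and 0.374. Ptpn3, a FERM and PDZ domain phosphatase, had 58.8, 64.3, 44.2 and 51.2 CPM in KO 1, KO 2, KO 4 and KO 5, against 36.9, 41.7, 39.3 and 49.6 CPM in WT 1, WT 2, WT 4 and WT 5. Its log2 fold change of 0.39 ± 0.13 was not called by edgeR (adjusted p = 0.0929, from 0.0195 in the libraries of code 7 alone to 0.239 over all settings). Ptpn3 was the uncalled member nearest to the threshold, and Dusp12 (edgeR adjusted p = 0.0368) the called one. The others, Ptpn4, Ptpn9, Ptpn12, Ptpn13, Ptpn18 and Ptpn23, had log2 fold changes from -0.18 (Ptpn13) to 0.09 (Ptpn12) and were not called.

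Receptor-type phosphatases span the membrane and sense neighbouring cells or matrix, and CD45, the product of Ptprc, sets the activity of the Src-family kinases of lymphocytes. Of the 10 genes, 1 rose and 1 fell, 20% of them, against 10% of all genes. Ptprc had the highest level per length of all 47 members, 459 ± 17.4 CPM per kilobase in the libraries labelled KO and 412 ± 21.7 CPM per kilobase in those labelled WT (SD, n = 4 each). Its CPM were 3145, 3337, 3314 and 3092 in KO 1, KO 2, KO 4 and KO 5, against 2721, 2894, 3089 and 2857 in WT 1, WT 2, WT 4 and WT 5. The ranges did not overlap, though KO 5 and WT 4 lay next to each other, and the log2 fold change of 0.16 ± 0.05 was not called (edgeR adjusted p = 0.101, from 0.0191 with DESeq2 to 0.262 without WT 1 over all settings). CD45 is carried by myeloid cells as well as T cells. Ptprcap, for the protein bound to CD45, had 214, 221, 179 and 215 CPM in KO 1, KO 2, KO 4 and KO 5, against 283, 256, 251 and 211 CPM in WT 1, WT 2, WT 4 and WT 5 (log2 fold change -0.27 ± 0.09, edgeR adjusted p = 0.108). It shares its locus with Rps6kb2 and Coro1b in the annotation, so its counts are uncertain.

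Ptprv had the smallest adjusted p of the members. The gene is known from bone, where its product OST-PTP was described in osteoblasts. It had 26.9, 25.1, 25.6 and 34.6 CPM in KO 1, KO 2, KO 4 and KO 5, against 137, 126, 117 and 133 CPM in WT 1, WT 2, WT 4 and WT 5. Each KO library lay far below the lowest WT library, with a 4.57-fold lower level (log2 fold change -2.19 ± 0.10, edgeR adjusted p = 3.69e-06). The log2 fold change stayed between -2.31 and -2.14 whichever library was left out. An antisense model, Gm10535, overlaps part of Ptprv.

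Ptprv and Ptpn7 are neighbours on chromosome 1 that are read in opposite directions from a common stretch. RefSeq places Ptprv from 135108498 to 135132575 on the minus strand and Ptpn7 from 135131838 to 135145328 on the plus strand, so that their spans share 738 bases. GENCODE places the starts 105 bases apart. The stretch at chr1:135132565-135132729 (GRCm38.p6, plus strand, from the RefSeq promoter table) is shown because both genes fell and both begin here in GENCODE. The capitals are the bases between the GENCODE starts, and the lower case letters are 30 bases of each transcribed side.
Ptprv and Ptpn7: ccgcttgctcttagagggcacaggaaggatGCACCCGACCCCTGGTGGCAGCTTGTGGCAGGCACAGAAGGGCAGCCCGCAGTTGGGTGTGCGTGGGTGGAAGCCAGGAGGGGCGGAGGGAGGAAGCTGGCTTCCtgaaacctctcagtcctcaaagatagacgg
As the sources used here do not give the strand setting of the counting, reads from the shared bases cannot be assigned to either gene. The ratio of Ptprv to Ptpn7 counts was 0.124, 0.121, 0.116 and 0.140 in KO 1, KO 2, KO 4 and KO 5, against 0.431, 0.454, 0.435 and 0.454 in WT 1, WT 2, WT 4 and WT 5. The ratio in every KO library lay below that in every WT library, and it varied little within a label. In all, 10 members lie on chromosome 1, of which Ptprv, Ptpn7, Dusp12 and Dusp23 fell and Dusp10 rose. This is 50% of them, against 10% of all genes called by edgeR. The share called among all genes of chromosome 1 is not given here, and a grouping of calls by chromosome was not tested. With 1 library left out, the call of Dusp12 held in 2 of 8 fits and that of Dusp23 in 1.

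Ptpro encodes a receptor-type phosphatase known from kidney podocytes and osteoclasts. It had 1.09, 2.50, 4.93 and 2.90 CPM in KO 1, KO 2, KO 4 and KO 5, against 0.171, 0.102, 0.0253 and 0.131 CPM in WT 1, WT 2, WT 4 and WT 5. These were 42, 98, 168 and 115 counts in the libraries labelled KO, against 7, 4, 1 and 5 in those labelled WT. The log2 fold change was 4.68 ± 0.57 (edgeR adjusted p = 0.000807), and 4.02 in the libraries of code 7 alone, and the gene was in the table through the KO libraries alone. Its order among the KO libraries was that of the summed myeloid markers, with KO 1 lowest, then KO 2, KO 5 and KO 4, and the part of myeloid cells in this difference was not tested.

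The other receptor-type genes were not called and several varied widely within a label. Ptprj encodes CD148, which acts on Src-family kinases in T cells and macrophages. It had 36.0, 46.3, 74.5 and 47.1 CPM in KO 1, KO 2, KO 4 and KO 5, against 22.3, 47.8, 21.7 and 43.8 CPM in WT 1, WT 2, WT 4 and WT 5. WT 2 and WT 5 lay among the KO libraries while WT 1 and WT 4 lay below them, so that the spread within the WT label (2.20-fold) was larger than the difference between the means (log2 fold change 0.59 ± 0.30, edgeR adjusted p = 0.286). The KO libraries stood in the order of the summed myeloid markers, whose part was not tested, and the log2 fold change was 0.35 without KO 4 and 0.28 in the libraries of code 7 alone. Ptpre, a relative of Ptpra, averaged 85.4 ± 12.5 CPM in the libraries labelled KO and 79.0 ± 1.61 CPM in those labelled WT (log2 fold change 0.11 ± 0.09), and Ptpra itself averaged 110.0 ± 2.87 CPM in the libraries labelled KO and 110.3 ± 5.65 CPM in those labelled WT. Ptprb, the phosphatase of endothelial cells that holds back the receptor Tie2, had 5.64, 5.96, 1.85 and 3.25 CPM in KO 1, KO 2, KO 4 and KO 5, against 2.55, 3.24, 2.02 and 3.92 CPM in WT 1, WT 2, WT 4 and WT 5, with overlap. The summed stromal and endothelial markers were 217, 136, 117 and 181 CPM in KO 1, KO 2, KO 4 and KO 5, against 174, 119.7, 112 and 166 CPM in WT 1, WT 2, WT 4 and WT 5. In the libraries of code 7 alone Ptprb was called (log2 fold change 0.99 against 0.51 ± 0.36 in all libraries, edgeR adjusted p = 0.047 and 0.441). Ptprs, which binds proteoglycans of the matrix, had a log2 fold change of -0.26 ± 0.13 that edgeR did not call (adjusted p = 0.259, from 0.00954 in the libraries of code 7 alone to 0.476 over all settings). It was called at -0.41 without KO 4 and at -0.48 in the libraries of code 7 alone, and also by limma-voom and with the library code as a term. Ptprg and Ptprk had log2 fold changes of 0.78 ± 0.40 and -0.32 ± 0.21.

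PRL phosphatases are small enzymes anchored to membranes by a lipid. None of the 3 was called by edgeR at an adjusted p below 0.05, against 10% of all genes. An unadjusted p under 0.05 was found for 1, and DESeq2 and limma-voom called 0. Ptp4a2, the highest of them per length, averaged 523 ± 22.0 CPM in the libraries labelled KO and 561 ± 40.4 CPM in those labelled WT (SD, n = 4 each). Ptp4a1 averaged 127 ± 16.6 CPM in the libraries labelled KO and 106 ± 11.0 CPM in those labelled WT, and Ptp4a3 had 68.9 to 86.1 CPM in the libraries labelled KO and 61.1 to 79.1 CPM in those labelled WT.

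MAP kinase phosphatases switch off ERK, p38 and JNK, and textbooks divide them into a nuclear group that stimulation induces (Dusp1, Dusp2, Dusp4 and Dusp5), a cytoplasmic group that acts on ERK (Dusp6, Dusp7 and Dusp9) and a group that prefers p38 and JNK (Dusp8, Dusp10 and Dusp16). All 3 genes of the p38 and JNK group rose, against 1 of 4 in the nuclear group and 0 of 2 measured in the cytoplasmic group. Over the whole table, 6.20% of genes were called higher. These groups hold few genes and were set with the results in view, and no difference between them was tested. By edgeR, DESeq2 and limma-voom 0 MAP kinase phosphatases fell, and the 4 with an unadjusted p under 0.05 were the 4 that rose.

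Dusp8, also known from brain, had the smallest adjusted p of the MAP kinase phosphatases. It had 19.6, 22.9, 18.2 and 18.1 CPM in KO 1, KO 2, KO 4 and KO 5, against 10.3, 13.1, 9.79 and 11.2 CPM in WT 1, WT 2, WT 4 and WT 5. The lowest KO library lay above the highest WT library, with a level 1.78-fold higher (log2 fold change 0.83 ± 0.11, edgeR adjusted p = 0.00134). Dusp8 was lower in KO 4 and KO 5 than in KO 1 and KO 2, and its log2 fold change was 0.94 in the libraries of code 7 alone; the part of myeloid cells in it was not tested. Dusp8 lies on chromosome 7 from 142079487 to 142095907, 1.15 Mb from Nlrp6 on the same chromosome. A divergent non-coding gene, Gm32786, overlaps the outer start of this span. A cyclic AMP response element, TGACGTCA, stands at 2 places in the 250 bases before an internal annotated start of Dusp8, with first bases 107 and 63 before it. These 250 bases lie within the gene span given above, not outside it. Dusp1, the classic immediate early member, was not called and has 1 such element, 143 bases before its start. The element was searched on both strands, which read alike for this palindrome. It occurs in 1.79% of all 32851 promoter windows of 300 bases in the RefSeq table and in 4 of the 49 windows of members (those of Dusp1, Dusp8, Ptpn11 and Ptprs). Both stretches are shown 5′ to 3′ in the direction of transcription with the element in capitals, Dusp8 from chr7:142095285-142095534 and Dusp1 from chr17:26508473-26508722 (GRCm38.p6, minus strand).
Dusp8: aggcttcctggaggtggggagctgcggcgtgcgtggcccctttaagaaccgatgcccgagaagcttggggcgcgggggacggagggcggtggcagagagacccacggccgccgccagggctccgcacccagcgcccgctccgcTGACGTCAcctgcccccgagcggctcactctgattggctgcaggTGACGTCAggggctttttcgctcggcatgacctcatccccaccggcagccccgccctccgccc
Dusp1: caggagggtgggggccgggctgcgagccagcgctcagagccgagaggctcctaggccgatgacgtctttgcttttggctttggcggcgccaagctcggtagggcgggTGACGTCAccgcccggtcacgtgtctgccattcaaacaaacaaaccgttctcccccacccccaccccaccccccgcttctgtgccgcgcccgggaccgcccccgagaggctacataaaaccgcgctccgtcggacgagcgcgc

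Dusp10, which acts on p38 and JNK and restrains cytokine production by T cells in mice, had 148, 161, 129 and 126 CPM in KO 1, KO 2, KO 4 and KO 5, against 102, 115, 90.3 and 93.6 CPM in WT 1, WT 2, WT 4 and WT 5. The ranges did not overlap, and KO 4 and KO 5 were the lower of the KO libraries (log2 fold change 0.49 ± 0.10, edgeR adjusted p = 0.0114). Dusp16, the third of this group, had 8.87, 7.82, 16.8 and 9.58 CPM in KO 1, KO 2, KO 4 and KO 5, against 4.38, 4.71, 4.17 and 5.12 CPM in WT 1, WT 2, WT 4 and WT 5. KO 4 was the highest library, as for the myeloid markers, and the log2 fold change of 1.22 ± 0.23 (edgeR adjusted p = 0.00762) was 0.93 without KO 4. Dusp8, Dusp10 and Dusp16 were called whichever library was left out, and in the libraries of code 7 alone.

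Among the nuclear group, Dusp4, a phosphatase of ERK and other MAP kinases, had 169, 162, 209 and 189.7 CPM in KO 1, KO 2, KO 4 and KO 5, against 122, 145, 143 and 148 CPM in WT 1, WT 2, WT 4 and WT 5. All KO libraries lay above all WT libraries (log2 fold change 0.39 ± 0.09, edgeR adjusted p = 0.0235), but the call ended without WT 1, WT 4 or KO 5 and in the libraries of code 7 alone, where the log2 fold change was 0.25. Dusp4 was highest in KO 4 and then KO 5, the libraries with the highest myeloid sums, whose part in it was not tested. Dusp1 was the second most abundant member per length, at 309.8 ± 52.5 CPM per kilobase in the libraries labelled KO and 376 ± 53.5 CPM per kilobase in those labelled WT. In CPM it had 631, 468, 713 and 593 in KO 1, KO 2, KO 4 and KO 5, against 871, 701, 623 and 723 in WT 1, WT 2, WT 4 and WT 5, with overlap between the labels (log2 fold change -0.28 ± 0.13, edgeR adjusted p = 0.247). Dusp2, known from activated T cells and specific for nuclear MAP kinases, averaged 372 ± 25.5 CPM in the libraries labelled KO and 363 ± 35.2 CPM in those labelled WT (log2 fold change 0.03 ± 0.07). Dusp5, an ERK phosphatase of the nucleus, averaged 287 ± 57.7 CPM in the libraries labelled KO and 235 ± 51.7 CPM in those labelled WT (log2 fold change 0.29 ± 0.17). In the cytoplasmic group, Dusp6 averaged 143 ± 12.1 CPM in the libraries labelled KO and 144 ± 12.5 CPM in those labelled WT, a difference of -0.01 ± 0.08 on the log2 scale, and Dusp7 differed by -0.06 ± 0.13.

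The other dual-specificity phosphatases lack the docking domain for MAP kinases. Of the 9, 1 rose and 3 fell, against 6.20% and 3.84% of all genes. Dusp14, known in mice as an inhibitor of T cell receptor signalling, had 23.2, 29.8, 21.9 and 23.0 CPM in KO 1, KO 2, KO 4 and KO 5, against 57.8, 45.7, 56.4 and 37.5 CPM in WT 1, WT 2, WT 4 and WT 5. The highest KO library, KO 2, was below the lowest WT library, WT 5, and the level was 2.02-fold lower (log2 fold change -1.01 ± 0.15, edgeR adjusted p = 0.00207). The gene lies on chromosome 11 from 84048033 to 84069256. Dusp3, a small phosphatase that can act on ERK and JNK, had 4.92, 5.17, 8.86 and 7.24 CPM in KO 1, KO 2, KO 4 and KO 5, against 3.43, 2.80, 1.97 and 3.97 CPM in WT 1, WT 2, WT 4 and WT 5. It followed the order of the summed myeloid markers among the KO libraries, and its log2 fold change was 1.10 ± 0.25 (edgeR adjusted p = 0.0227), but 0.73 and not called in the libraries of code 7 alone. The call also ended without WT 1, WT 2, WT 4 or KO 5, and the gene overlaps an antisense model and Cfap97d1 on the other strand.

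Dusp12 averaged 8.57 ± 0.879 CPM in the libraries labelled KO and 11.0 ± 0.644 CPM in those labelled WT (log2 fold change -0.36 ± 0.09, edgeR adjusted p = 0.0368), and of the 8 libraries, leaving out WT 1 or KO 4 kept its call and leaving out another ended it. Although it was called lower, Dusp12 also followed the order of the summed myeloid markers among the KO libraries. It had 7.84, 7.92, 9.71 and 8.82 CPM in KO 1, KO 2, KO 4 and KO 5. How often genes follow this order was not tested. Dusp23 averaged 1.20 ± 0.242 CPM in the libraries labelled KO and 2.10 ± 0.271 CPM in those labelled WT (log2 fold change -0.81 ± 0.19, edgeR adjusted p = 0.0277), and its call held in the fit without KO 2 alone. No other called member lost its call for as many left-out libraries. Dusp22, which dephosphorylates Lck in mice, averaged 6.36 ± 0.839 CPM in the libraries labelled KO and 5.34 ± 0.588 CPM in those labelled WT and was not called. Dusp11, an RNA phosphatase, varied little, at 269 ± 6.92 CPM in the libraries labelled KO and 282 ± 4.80 CPM in those labelled WT (log2 fold change -0.07 ± 0.04). Dusp18, Dusp19 and Dusp28 had log2 fold changes of -0.26, 0.08 and 0.25 and were not called.

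**Figure D3:**
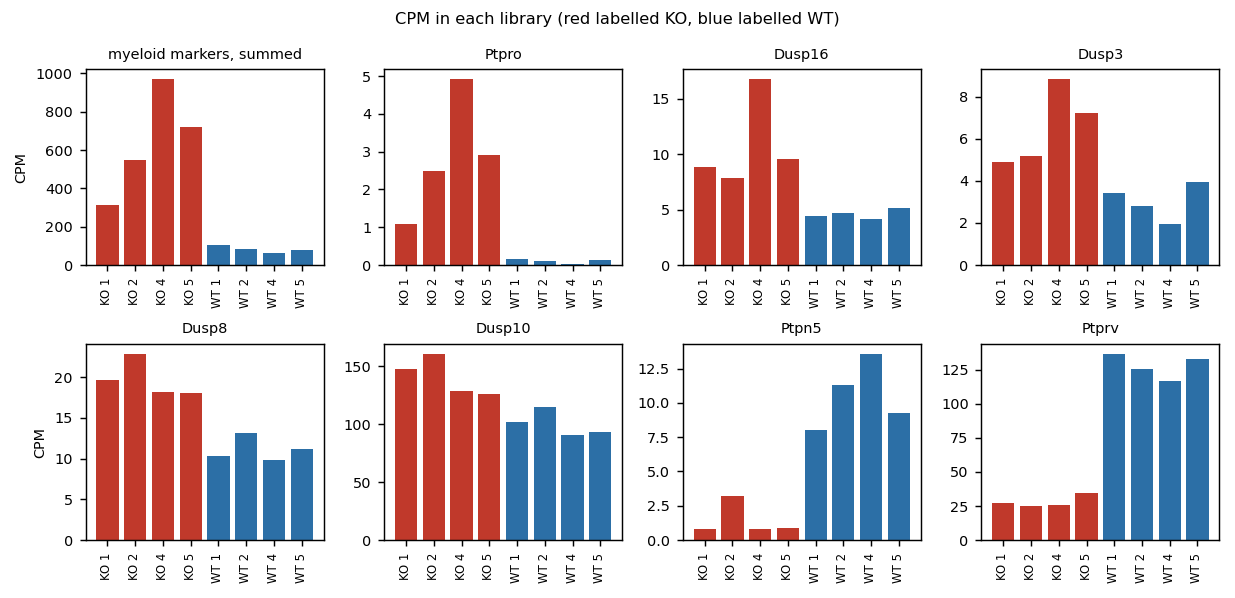
CPM of the myeloid markers, summed over 20 genes, and of 7 called members in each library, red for libraries labelled KO and blue for those labelled WT, each axis from 0. Ptpro and Dusp3 order the KO libraries as the markers do, Dusp16 shares their maximum in KO 4, and Dusp8, Dusp10, Ptpn5 and Ptprv do not peak in KO 4.

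Levels could be compared between genes per kilobase of the deposited gene length. Ptprc and Dusp1 had the highest means under both labels. In the libraries labelled KO they were followed by Dusp5 (248 ± 50 CPM per kilobase), Ptprcap (245 ± 22.4), Ptpn22 (244 ± 21.1) and Dusp2 (229.7 ± 15.8), which did not differ beyond their spread (SD, n = 4). In the libraries labelled WT they were followed by Ptprcap (296 ± 35.0 CPM per kilobase), which lay above Ptpn22 (234 ± 16.8), Dusp2 (225 ± 21.8) and Dusp5 (204 ± 44.7) by more than their SD, while these last 3 did not differ beyond theirs. At the low end, the libraries labelled KO had Ptprg at 0.108 ± 0.0369, Dusp18 at 0.242 ± 0.0360, Ptpn5 at 0.314 ± 0.264, Ptprb at 0.316 ± 0.149 and Ptpro at 0.362 ± 0.201 CPM per kilobase. The libraries labelled WT had Ptpro at 0.0136 ± 0.00782, Ptprg at 0.0630 ± 0.0340, Ptprb at 0.222 ± 0.0624 and Dusp18 at 0.290 ± 0.0482 CPM per kilobase. The order at the low end thus differed between the labels through Ptpro and Ptpn5, and Dusp18 and Ptprb also changed places. Of the called members, Ptpn7, Ptpn1, Dusp4, Dusp10, Ptpn11, Dusp14 and Ptprv lay in the upper part of the order over all 8 libraries. The members with the largest fold changes, Ptpro and Ptpn5, lay in the lower part.

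**Figure D4:**
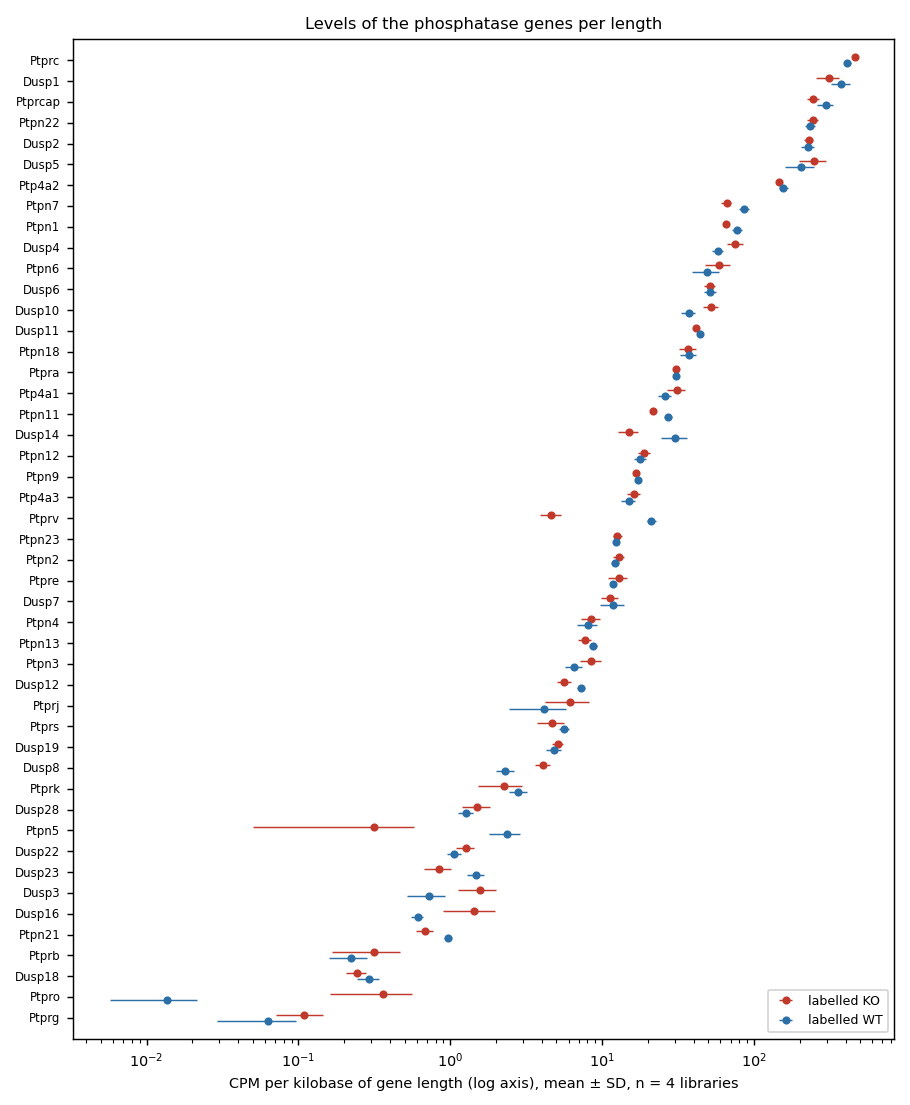
Level of each of the 47 genes in CPM per kilobase of gene length on a log axis, mean ± SD of the 4 libraries labelled KO (red) and of the 4 labelled WT (blue), ordered by the mean over all 8. Levels run from Ptprg at the bottom to Ptprc at the top, and the labels are farthest apart for Ptpro, Ptpn5 and Ptprv.

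Genes that work beside these phosphatases were counted in 4 lists, to be read beside the 10% of all genes that edgeR called. Of 18 genes at the T cell receptor, 1 rose and 2 fell, 16.7% of the list (median log2 fold change -0.06). The riser was Syk, the kinase that B cells and myeloid cells use in place of Zap70, with 8.95, 16.6, 31.8 and 20.1 CPM in KO 1, KO 2, KO 4 and KO 5, against 1.79, 1.17, 1.52 and 2.04 CPM in WT 1, WT 2, WT 4 and WT 5 (log2 fold change 3.57 ± 0.37, edgeR adjusted p = 0.000442). Its KO libraries stood in the order of the myeloid markers. Zap70 averaged 363 ± 21.6 CPM in the libraries labelled KO and 437 ± 35.2 CPM in those labelled WT (log2 fold change -0.27 ± 0.07, edgeR adjusted p = 0.0304), but lost its call without WT 1, WT 2, KO 1, KO 2 or KO 5. Cd247, the zeta chain, averaged 286 ± 48.1 CPM in the libraries labelled KO and 377 ± 25.9 CPM in those labelled WT (log2 fold change -0.40 ± 0.11, edgeR adjusted p = 0.0444) and kept its call only without WT 5 or KO 4. Vav1 (log2 fold change 0.12 ± 0.04) was not called.

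Of 22 measured genes of the MAP kinase cascade, 0 rose and 1 fell by edgeR, 4.55% of the list, with log2 fold changes from -0.23 to 0.22; 5 had an unadjusted p under 0.05, DESeq2 called 1 and limma-voom 2. Mapkapk3, Ksr1 and Mapk8, which encodes JNK1, had log2 fold changes of 0.22, -0.23 and -0.17 and were not called. The 4 measured Sprouty and Spred genes, inhibitors of Ras that ERK induces, gave 0 calls by edgeR, DESeq2 and limma-voom and 1 unadjusted p under 0.05. Spry2 had a log2 fold change of 0.89 ± 0.32, with 1.17 to 3.03 CPM in the libraries labelled KO and 0.759 to 1.19 CPM in those labelled WT, and Spred1, Spred2 and Spry1 had 0.13, 0.12 and 0.04. Of 27 other cysteine phosphatases outside the name rule, 1 rose and 1 fell, 7.41% of the list, against 10% of all genes. Ssh2, a cofilin phosphatase, averaged 239 ± 35.8 CPM in the libraries labelled KO and 176 ± 10.6 CPM in those labelled WT (log2 fold change 0.44 ± 0.10, edgeR adjusted p = 0.0219), and lost its call without WT 2, WT 4 or KO 1. Cdc14b averaged 10.7 ± 0.689 CPM in the libraries labelled KO and 13.4 ± 1.14 CPM in those labelled WT (log2 fold change -0.32 ± 0.09, edgeR adjusted p = 0.0423), with a call that held without WT 5 alone. Ssh1 and Mtmr3 had log2 fold changes of -0.29 and -0.16 and were not called.

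**Figure D5:**
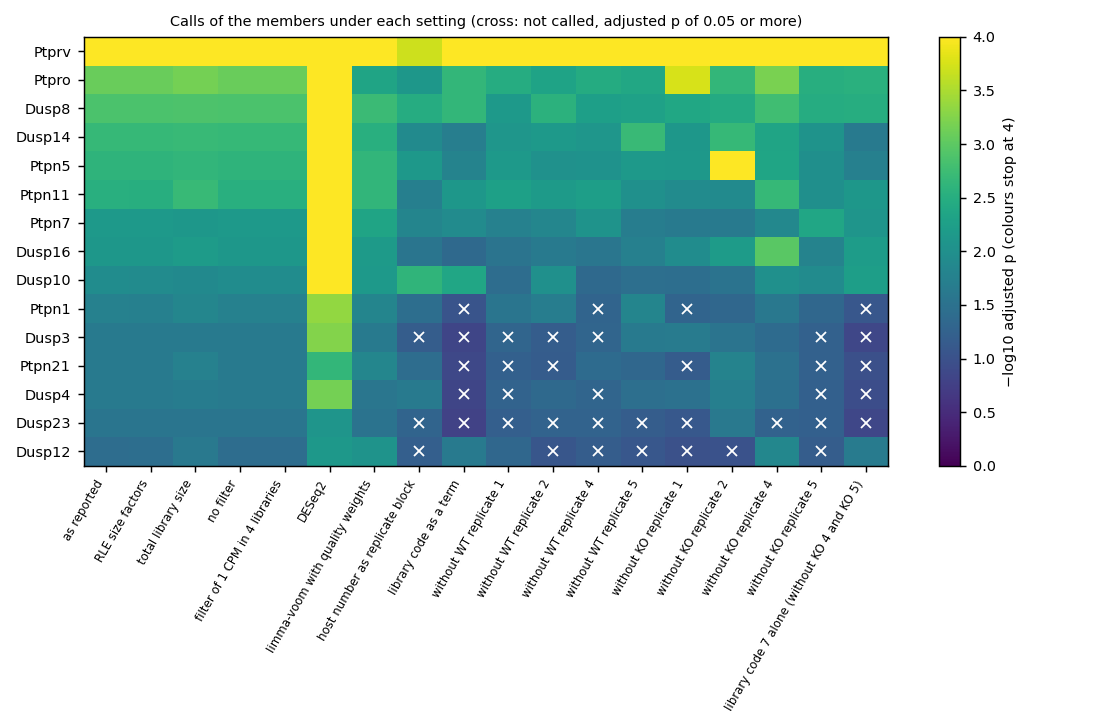
Adjusted p of the 15 called genes as −log10 by colour (colours stop at 4) under each setting, from the reported fit on the left to the libraries of code 7 alone on the right; crosses mark fits in which a gene was not called. The upper 9 genes, from Ptprv to Dusp10, have no cross, and Dusp23 has the most.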

How the data were processed

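Stranded TruSeq mRNA libraries of 8 samples, 4 per label, were sequenced from 1 end (81 bases) on a NextSeq instrument, per the labels' protocols. The authors aligned reads with STAR to mm10, per the submitters' processing notes. The sources used here name no counting tool, annotation or strand setting. The table deposited by the authors holds raw counts per gene, judged from whole numbers with differing totals (35198192 to 40310721). No libraries were duplicates of each other: within labels they differed by 13.52 or more per gene in chi-square. The 6 rows without a gene symbol held 0.0173% of counts and were tested with the rest.

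All 11354 genes were tested with edgeR 4.0.16 in R 4.3.3 (TMM, filterByExpr, which removed 0 genes, glmQLFit and glmQLFTest, with the label as the only term), and a call required a Benjamini-Hochberg adjusted p below 0.05. CPM used TMM-scaled library sizes. Standard errors came from the fold change and the test's F value. Alternatives were other scalings and filters, DESeq2 1.42.0, limma-voom (limma 3.58.1), the host number as a block, the library code as a term and each library left out; the libraries of code 7 alone were added after seeing the data. Summed marker CPM were set against each other by exact permutation over 70 assignments and adjusted over 9 lists; the B cell list had 0 measured genes. Members were matched to RefSeq by Entrez identifier (47 of 47). Members, lists and groups were chosen with earlier results of these data known. Named with values are all called members, the known regulators of T cell signalling, the 5 highest and 3 lowest members per length, and the 4 smallest p of each pathway list; other members named were chosen after their values were seen. Of the genes this rule names, 1 is not reported here.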

Additional observations from a re-analysis of the deposited data

Results flagged for a closer look

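In 10 of 146 groups of 4 libraries examined, 1 library stood apart from the other 3 by Dixon's criterion at 95%. Chance alone flags about 1 of 20 groups, so a number of flags not far below this one can arise by chance. Ptpn5 was at 3.18 CPM in KO 2, against 0.776 to 0.882 CPM in the other libraries labelled KO, and Dusp14 was at 29.8 CPM in KO 2, against 21.9 to 23.2 CPM. Dusp22 stood out in host number 2 of each label, at 7.61 CPM in KO 2 (5.87 to 5.98 CPM in the others) and at 6.22 CPM in WT 2 (4.98 to 5.12 CPM in the others). Ptp4a1 was at 123 CPM in WT 2, against 99.4 to 102 CPM in the other libraries labelled WT. WT 5 was high for Ptpn4 (46.6 CPM, against 34.6 to 36.1 CPM) and Dusp23 (2.51 CPM, against 1.95 to 1.98 CPM), and WT 4 was low for Ptprk (20.0 CPM, against 26.3 to 27.0 CPM). Outside the family, Zap70 was at 395 CPM in KO 4, against 350.1 to 354 CPM in the other libraries labelled KO, and Cdc14b was at 9.65 CPM in KO 4, against 10.9 to 11.1 CPM. Of these genes, Ptpn5, Dusp14, Dusp23, Zap70 and Cdc14b were called.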

How the results depend on the processing

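The 15 called members kept their direction under every alternative run, and 9 of them (Ptprv, Ptpro, Dusp8, Dusp14, Ptpn5, Ptpn11, Ptpn7, Dusp16 and Dusp10) also kept their call. Scaling and low-count filters left the 15 calls as they were, and DESeq2 and limma-voom added 3 and 2 members. With 1 library left out, 4 to 7 members were higher and 5 to 10 lower, and over all genes 516 to 709 were higher and 276 to 509 lower; the library code as a term gave 249 lower genes instead of 436. Of the T cell receptor list, DESeq2 called 5 genes instead of 3, and 1 to 5 were called with a library left out. Of the MAP kinase cascade, limma-voom and the libraries of code 7 alone each called 2 genes instead of 1, and 1 to 2 were called with a library left out. Of the other cysteine phosphatases, 4 were called instead of 2 with total library size, 5 with DESeq2, 0 with the library code as a term, 1 in the libraries of code 7 alone and 0 to 2 with a library left out. The host number as a replicate block gave 5 higher and 7 lower members and ended the calls of Dusp12, Dusp23 and Dusp3. Deviations of same-numbered libraries correlated at -0.0601, 0.182, -0.138 and 0.256 for hosts 1, 2, 4 and 5, so the numbers were not taken to pair the libraries; host 5 alone matched its own number best. The cause of these changes was not tested. Dusp23, Dusp18 and Ptprg lie near 1 CPM, as Ptpn5 does in KO 1, KO 4 and KO 5, so depth limits the precision of these values.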
